A study of Mus musculus with 4 samples.

Results

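Marker genes of the cells that surround or invade a kidney epithelium were read in RNA of cultured mouse ureteric buds. The set held 34 genes chosen by name for the class of cell they mark: 11 stromal, 11 endothelial, 10 leukocyte and 2 neural genes. Probes were found through the accession printed for each array feature, dim probes included, and 33 of the 34 genes were matched, by 47 probes, out of 17305 genes named on the array. No probe was matched for the macrophage gene Cd68, for which no value is given.

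The buds, labelled intact ureteric buds of the kidney, were cultured in matrix gel in DMEM/F12 medium with 10% FBS, 100 ng/ml GDNF and 100 ng/ml HGF. They then had 6 h with angiotensin II (AngII, 1e-05 M), a peptide hormone of the renin-angiotensin system, or 6 h with media alone. Both groups shared the matrix, the serum and the growth factors, and the labels give no strain, age or number of buds. RNA of 2 numbered AngII and media pairs was compared on 4 2-colour arrays of 1 slide, each pair once with AngII in Cy5 and once with the dyes swapped.

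The ureteric bud is an epithelial tube that branches into the surrounding mesenchyme and forms the collecting ducts and ureter. Around it lie Foxd1-lineage stroma, nephron progenitors, a capillary network, tissue macrophages and ingrowing nerves. A bud freed of these tissues should carry little of their RNA, which is the question the markers address. In RNA of whole buds, fewer cells of a type and less RNA per cell cannot be told apart, and these files do not show which cell a transcript came from.

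The number of arrays limits the precision. In single channels 19028 to 21922 of 41174 probes lay well above background. The AngII over media ratios of the numbered pairs correlated at r = 0.98 across 14995 features, which are not independent replicates. The contrast between the pairs had an SD of 0.0376 (log2) over features, against 0.0370 for the one that holds array noise alone, a ratio of 1.02. The pairs did not differ beyond array noise (limma, 0 features at an adjusted p under 0.05 and 767 at an unadjusted p under 0.05). They were therefore counted as 1 independent pair. P-values from limma thus reflect how far hybridisations of the same RNAs varied, not how buds varied. The dye contrast had an SD of 0.16, against 0.38 for AngII over media, and arrays of opposite dye correlated at r = 0.67 to 0.68. Values are therefore given for each array, in the order replicate 1 and replicate 2 with AngII in Cy5, then replicate 1 and replicate 2 with AngII in Cy3.

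Of 33 matched markers, 29 had a probe that Agilent's software called well above background on all 4 arrays in the AngII RNA, in the media RNA or in both. That was 10 of 11 stromal, 10 of 11 endothelial, 7 of 9 leukocyte and both neural markers, beside 66.2% of all genes named on the array. The genes below that line were Tbx18, Tek, Laptm5 and Lyz2. In 25 of the 33, a probe was well above background in all 8 channel readings, beside 10814 of the 17305 genes named on the array.

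**Figure D1:**
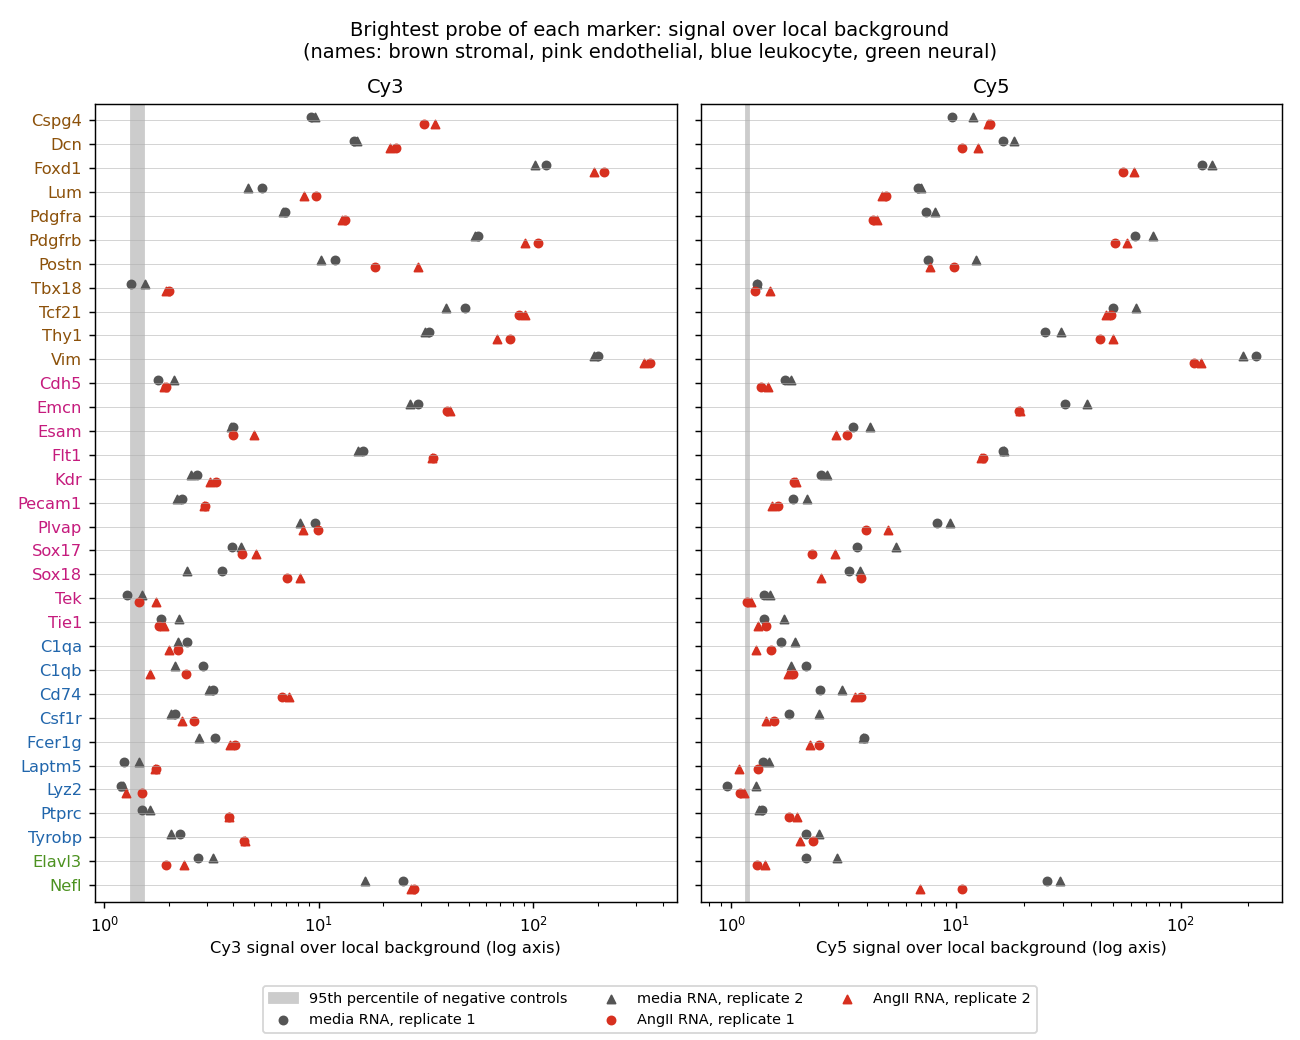
Signal over local background of the brightest probe of each of 33 markers, in Cy3 (left) and Cy5 (right), on log axes. Points are single arrays, grey for media RNA and red for AngII RNA, with circles for replicate 1 and triangles for replicate 2, and the grey band is the range over arrays of the 95th percentile of negative control spots. Tested stromal markers reached 350-fold over background, while tested leukocyte markers lay between 1.29-fold and 7.29-fold.

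Signal over background is the median pixel intensity of a spot divided by that of its local background. Negative control spots had a median of 1.16 to 1.32 in Cy3 and 1.04 to 1.06 in Cy5, and a 95th percentile of 1.33 to 1.53 in Cy3 and 1.16 to 1.20 in Cy5. Probes differ in how brightly they read a given amount of RNA, so one gene's value is no measure of its abundance against another's. All 29 tested markers lay above the 95th percentile of the controls in all 8 readings.

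In the tested stromal class the brightest probes lay between 4.27-fold and 350-fold over background. Foxd1, the transcription factor gene that marks cortical stroma, had 102 and 114 in the Cy3 media channels and 192 and 212 in the Cy3 AngII channels. In Cy5 it had 125 and 138 for media and 55.3 and 62.1 for AngII, so that the higher group turned with the dye. These are single-channel readings before normalisation and show detection, not a difference. Tcf21, a transcription factor gene of kidney mesenchyme, lay between 39.2 and 91.7, and Pdgfrb, the PDGF receptor gene of pericytes and mesangial cells, between 51.2 and 106. The intermediate filament gene Vim, which many mesenchymal cell types express, lay between 114 and 350. Neither RNA lacked these transcripts. Tbx18, which marks mesenchyme around the ureter, read 1.27 to 2.00 at its brighter probe, with 3 AngII channels and 1 media channel well above background, and its other probe had none.

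Endothelial markers were measured closer to background, at 1.32-fold to 40.9-fold among the tested. Emcn, a sialomucin of capillary and venous endothelium, lay between 19.1 and 40.9, and Flt1, a VEGF receptor gene, between 12.9 and 33.9. Defining junction and receptor genes were near the controls. Cdh5, the endothelial cadherin gene, read 1.36 to 2.11, the adhesion receptor gene Pecam1 1.52 to 2.95, the VEGF receptor gene Kdr 1.91 to 3.31 and the orphan receptor gene Tie1 1.32 to 2.23. Tek, the angiopoietin receptor gene, read 1.18 to 1.75, with 2 media channels and no AngII channel well above background.

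Leukocyte markers stood lowest over background, at 1.29-fold to 7.29-fold among the 7 tested. The MHC class II chain gene Cd74 read 2.49 to 7.29, the signalling adaptor genes Tyrobp and Fcer1g 2.02 to 4.53 and 2.25 to 4.08. The complement genes C1qa and C1qb, made by tissue macrophages, read 1.29 to 2.42 and 1.64 to 2.89. Csf1r, the receptor gene on which macrophages depend, read 1.42 to 2.61. Ptprc, which encodes the pan-leukocyte antigen CD45, read 1.33 to 1.64 in the media channels and 1.80 to 3.83 in the AngII channels. The macrophage lysozyme gene Lyz2 read 0.957 to 1.5 with no channel well above background, and Laptm5, a lysosomal membrane gene of blood cells, read 1.09 to 1.75 with 3 of 8 channels well above it.

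Of the neural pair, the neurofilament gene Nefl read 6.94 to 29.1 and Elavl3, a neuronal RNA-binding protein gene, 1.31 to 3.20.

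For comparison, 25 of 28 markers of the ureteric epithelium itself were well above background in all 8 channel readings, among them Cdh1, Epcam, Gata3 and Wnt11. Ret, the GDNF receptor gene of the ureteric tip, was not, nor were the uroplakin genes Upk1a and Upk3a. Some epithelial genes were as dim as some of the endothelial ones. Cdh1 and Pax2 had mean log2 intensities of 6.49 and 6.59, beside 6.57 for Pecam1 and 6.39 for Cdh5. Mean log2 intensities of the tested epithelial genes ran from 6.40 (Tfap2b) to 17.0 (Krt18). Those of the tested endothelial markers ran from 6.31 (Tie1) to 10.0 (Emcn). A dim probe alone thus did not show which class a gene belonged to, though the epithelial list reached far higher values. Under the test described next, the epithelial list had 11 higher and 11 lower of 25 tested, beside 39.1% and 38.1% of all features. Wnt9b had a log2 ratio of 1.53, Elf5 1.37 and Wnt7b -1.13. Of 13 nephron progenitor markers, 12 were well above background in all 8 readings, Six2 and Cited1 included.

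Wider lists of markers were read the same way. In the wider stromal list 20 of 21 matched genes had a probe well above background, in the endothelial list 15 of 19, in the neural list 12 of 19 and in the leukocyte list 11 of 20. Leukocyte genes below the line included Cx3cr1, Itgam, Itgb2, Spi1 and Cybb, and neural ones Stmn2, Snap25 and Gap43.

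AngII over media was then tested in limma for all 14995 features. A feature passed at a Benjamini-Hochberg adjusted p under 0.05, which 77.2% of features did, 39.1% of them higher and 38.1% lower under AngII. Of the 29 tested markers 24 passed (82.8%), 10 higher and 14 lower, a share near that background. Of these, Ptprc was measured above background throughout only in the AngII RNA, and Cdh5, Tie1 and Elavl3 only in the media RNA. These 4 entered the test through the group in which they read higher, so their values are given as a description, with no p. Among the other 25 markers, with a probe well above background in all 8 readings, 9 were higher and 11 lower, beside 39.7% and 39.4%, or 79.1% in either direction, of the 13869 features measured that way. The standard error of a marker's log2 ratio was 0.0337 to 0.0365. At least 1.5-fold was reached by 3 of 29 markers, Cspg4, Thy1 and Ptprc, and by 10.9% of all features.

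Passing did not mean the same sign on every array. Of the 24 markers that passed, 5 had ratios of both signs, namely Foxd1, Pdgfrb, Emcn, Esam and Fcer1g, and in each the sign followed the dye. Over all features 57.7% passed with one sign on all 4 arrays (30.3% higher, 27.4% lower), and 19 of 29 markers did, 9 higher and 10 lower. Among these 19 were Ptprc as higher and Cdh5, Tie1 and Elavl3 as lower. These markers entered the test through the group in which they read higher, so their signs are no support. With the replicate block, a fit on the 4 single arrays in which the dye stays in the residual, 11 of 29 markers passed, 8 higher and 3 lower, beside 30.9% of all features (16.3% higher, 14.6% lower). Ptprc and Elavl3 were among them, but they entered through the group in which they read higher, so their passing is no support. All 11 had one sign on all 4 arrays, and they were Cspg4, Thy1, Postn, Flt1, Sox18, Plvap, Ptprc, Cd74, Tyrobp, Nefl and Elavl3.

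**Figure D2:**
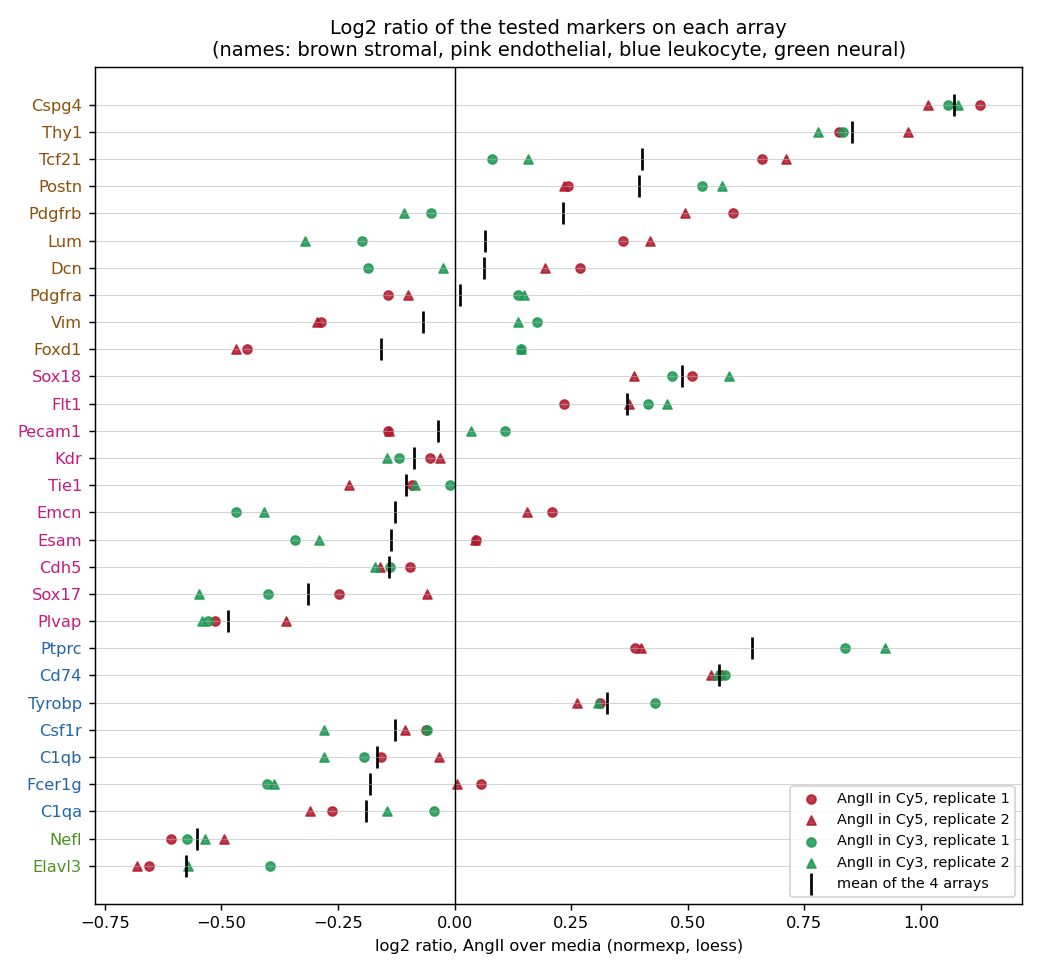
Log2 ratio of AngII over media for the 29 tested markers, by class, on each of the 4 arrays. Red points are arrays with AngII in Cy5 and green points those with AngII in Cy3, circles are replicate 1, triangles replicate 2, and the black bar is the mean of the 4. Cspg4 lies between 1.02 and 1.13 on all arrays, while Foxd1, Lum and Emcn have the 2 dye orientations on opposite sides of 0.

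Stromal markers moved unevenly. Among 10 tested, 5 rose, 1 fell and 4 failed the test, beside 39.1% of all features higher and 38.1% lower. The median log2 ratio was 0.15, against 0.013 over all named genes. Cspg4, which encodes the NG2 proteoglycan of pericytes, had log2 ratios of 1.13, 1.02, 1.06 and 1.08. The 4 arrays were all near the mean of 1.07, a 2.10-fold rise (limma adjusted p = 2.26e-18), and its other probe had 0.66. Thy1, a surface glycoprotein gene of fibroblasts and also of neurons and T cells, had 0.82, 0.97, 0.83 and 0.78. It rose by 0.85 (adjusted p = 1.59e-16), but its dimmer probe, with 7 of 8 channels well above background, had -0.16, 0.036, 0.21 and 0.20, a mean of 0.072. The probes thus differed by over 1.5-fold.

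Postn, a matrix protein gene of activated stroma, had 0.24, 0.24, 0.53 and 0.57 and rose by 0.40 (limma adjusted p = 2.00e-10). Tcf21 had 0.66, 0.71, 0.079 and 0.16 and rose by 0.40 (adjusted p = 2.16e-10; 0.0984 with the replicate block). Both genes were higher under AngII on every array, Postn more so with AngII in Cy3 and Tcf21 more so with AngII in Cy5. Pdgfrb had 0.60, 0.49, -0.050 and -0.11, and its rise of 0.23 (limma adjusted p = 2.01e-06) held only with AngII in Cy5.

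Foxd1 had -0.45, -0.47, 0.14 and 0.14. It was lower under AngII on the arrays with AngII in Cy5 and higher on the other pair, and its mean fell by 0.16 (limma adjusted p = 0.000195; 0.471 with the replicate block). Lum and Dcn, both small proteoglycan genes of fibroblasts, had means of 0.065 and 0.063, with ranges of -0.32 to 0.42 and -0.19 to 0.27. Pdgfra, the PDGF receptor gene of mesenchymal cells, had 0.011 (-0.14 to 0.15; -0.14 at its other probe) and Vim -0.067 (-0.30 to 0.18). None of these 4 passed, and at the brightest probe of each the sign followed the dye. The other Pdgfra probe, well above background in all 8 readings, had -0.18, -0.012, -0.21 and -0.15. The wider stromal list split 7 higher and 10 lower of 20 tested, beside 39.1% and 38.1% of all features. Its median was -0.077. Of 17 with all 8 readings above background, 7 were higher and 9 lower, beside 39.7% and 39.4% of features read that way. The contractile actin gene Acta2 rose by 1.69 (1.53 to 1.92 over the arrays; limma adjusted p = 6.66e-22) and Nkd2, an inhibitor of Wnt signalling, fell by 0.72 (-0.97 to -0.43; adjusted p = 3.27e-15). Among other smooth muscle and pericyte genes of the list, Rgs5 rose by 0.28, and Tagln, Mcam and Des fell by 0.36, 0.32 and 0.20.

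Endothelial markers had mostly small negative ratios. Among 10 tested, 2 passed as higher and 7 as lower, beside 38.1% of all features lower, and the median was -0.12. Without Cdh5 and Tie1, 5 of 8 were lower, beside 39.4% of features above background in all 8 readings, and the median was -0.11. With the replicate block Plvap alone passed as lower, and Kdr, Emcn and Esam had adjusted p = 0.347, 0.572 and 0.366. Flt1 and Sox18 were the pair that rose. Flt1 had 0.24, 0.37, 0.42 and 0.46 (mean 0.37, limma adjusted p = 1.22e-09). Sox18, a transcription factor gene of vascular and lymphatic endothelium, had 0.51, 0.38, 0.47 and 0.59 (mean 0.49, adjusted p = 4.44e-12). Plvap, which encodes the diaphragm protein of fenestrated capillaries, had -0.51, -0.36, -0.53 and -0.54 and fell by 0.49 (adjusted p = 6.79e-12). Sox17, an arterial transcription factor gene, had -0.25, -0.060, -0.40 and -0.55 and fell by 0.31 (limma adjusted p = 1.13e-08; 0.0793 with the replicate block).

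Cdh5 had -0.095, -0.16, -0.14 and -0.17, a mean of -0.14. Only 3 of 4 AngII channels were well above background for its brighter probe, and its other probe gave -0.18. Tie1 had a mean of -0.10 (-0.23 to -0.0097), also with 3 of 4 AngII channels above background. Kdr had a mean of -0.087 (-0.14 to -0.031) at a limma adjusted p of 0.0233, which was 0.0727 with no filter on dim probes and 0.505 with AngII in Cy5 alone. Pecam1 had -0.035 (-0.14 to 0.11) and did not pass. Emcn fell by 0.13 and the junction gene Esam by 0.14 over the mean, but with AngII in Cy5 both were higher, at 0.18 and 0.045. With Agilent's processed signals, which carry no added offset, the ratios of dim genes lay further from 0: Cdh5 had -0.84, Tie1 -0.85 and Kdr -0.25, and the class median was -0.31.

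The wider endothelial list had 8 higher and 4 lower of 15 tested, beside 39.1% and 38.1% of all features, and a median of 0.080. Cd93, a C-type lectin receptor gene, rose by 0.57 (0.47 to 0.63; limma adjusted p = 2.70e-13) and Rasip1, needed for vessel lumens, fell by 0.49 (-0.68 to -0.25; adjusted p = 4.75e-12). The tight junction gene Cldn5 rose by 0.48 and Vwf, the clotting factor carrier gene, by 0.33. Icam2 fell by 0.39 (-0.50 to -0.26) and Ets1 by 0.30 (-0.42 to -0.18). Red cell markers stood higher under AngII: 8 of 9 rose, beside 39.1% of all features, 1 failed the test, and the median was 1.91. The globin genes Hbb-bt, Hbb-bh1 and Hba-a1 had 2.78, 2.58 and 2.29. The summed normalised intensity of the 9 was 6626 to 7863 in media and 33158 to 40947 in AngII. Klf1 and Gata1 were among the genes of that list too dim to test. The part of blood in the vessel and leukocyte ratios was not tested.

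Of the receptor kinase genes of this class, Flt1, Kdr and Tie1 were measured at different ratios, and Tek was too dim to test. Only the rise of Flt1 also passed with the replicate block. The sequences before the starts of these genes are shown side by side. The small ratio of Kdr did not keep its call with the replicate block (limma adjusted p = 0.347), and that of Tie1 is a description alone. The sequences are the 250 bases upstream of the annotated start in RefSeq (GRCm38.p6), each 5′ to 3′ on the gene's own strand. Capitals mark GGAAG, or CTTCC where it lies on the other strand, which holds the core read by ETS factors, a family that acts at many endothelial genes. The windows lie at chr5:147726012-147726261 (minus strand) for Flt1, chr5:75978456-75978705 (minus strand) for Kdr, chr4:118489850-118490099 (minus strand) for Tie1 and chr4:94739039-94739288 (plus strand) for Tek.
Flt1: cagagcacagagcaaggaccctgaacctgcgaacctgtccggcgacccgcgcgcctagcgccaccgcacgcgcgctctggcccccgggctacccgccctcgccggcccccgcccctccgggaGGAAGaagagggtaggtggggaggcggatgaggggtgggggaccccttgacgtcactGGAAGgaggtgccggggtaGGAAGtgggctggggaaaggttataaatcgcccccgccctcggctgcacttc
Kdr: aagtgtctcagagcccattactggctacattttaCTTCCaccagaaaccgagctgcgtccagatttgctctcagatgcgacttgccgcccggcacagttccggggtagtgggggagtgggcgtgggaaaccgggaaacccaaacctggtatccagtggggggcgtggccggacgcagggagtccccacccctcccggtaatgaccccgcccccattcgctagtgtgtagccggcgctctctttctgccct
Tie1: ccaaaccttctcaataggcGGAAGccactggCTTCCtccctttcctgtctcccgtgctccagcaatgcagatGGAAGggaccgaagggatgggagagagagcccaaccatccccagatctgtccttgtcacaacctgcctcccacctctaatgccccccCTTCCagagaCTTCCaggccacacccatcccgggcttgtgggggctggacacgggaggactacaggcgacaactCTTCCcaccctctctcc
Tek: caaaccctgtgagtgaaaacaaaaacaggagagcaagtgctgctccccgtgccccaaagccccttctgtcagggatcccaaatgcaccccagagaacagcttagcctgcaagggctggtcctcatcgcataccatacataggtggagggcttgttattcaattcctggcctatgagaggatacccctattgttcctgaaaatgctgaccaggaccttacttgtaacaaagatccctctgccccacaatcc
Matches numbered 3 in Flt1, 1 in Kdr, 6 in Tie1 and 0 in Tek. Only this form was searched. The shorter TTCC stands unmarked in the Tek and Kdr windows, so a count of 0 does not mean that the core is absent. Of 5 endothelial markers with a window in the reference, 4 held a match, as did 64.1% of all 32851 windows of this length, so matches were common. No binding was measured here.

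Leukocyte markers split. Of 7 tested, 3 were higher and 4 lower, beside 39.1% and 38.1% of all features, and their median was -0.13. Without Ptprc, 2 of 6 were higher and 4 lower, beside 39.7% and 39.4% of features above background in all 8 readings. The median was then -0.15. Ptprc had 0.39, 0.40, 0.84 and 0.92, a mean of 0.64. It was higher under AngII on all 4 arrays, and with processed signals the log2 ratio was 2.26. Ptprc was printed at 10 spots of each array, whose ratios had an SD of 0.064 to 0.16 within an array. Only 3 of 4 media channels were well above background for it, and 2 further Ptprc probes, too dim to test, had 0.13 and 0.10.

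Cd74 had 0.57, 0.55, 0.58 and 0.56, the narrowest spread of the 29, and rose by 0.57 (limma adjusted p = 2.71e-13). Tyrobp had 0.31, 0.26, 0.43 and 0.31 and rose by 0.33 (adjusted p = 9.67e-09). The complement genes and Csf1r lay on the other side of 0. C1qa had -0.26, -0.31, -0.044 and -0.15 and fell by 0.19 (limma adjusted p = 2.80e-05), C1qb fell by 0.17 (-0.28 to -0.034) and Csf1r by 0.13 (-0.28 to -0.059). Another Csf1r probe that was tested had -0.0067. Fcer1g had 0.057, 0.0058, -0.40 and -0.39, so its fall of 0.18 (limma adjusted p = 3.69e-05) held only with AngII in Cy3. None of C1qa, C1qb, Csf1r and Fcer1g passed with the replicate block, at adjusted p = 0.118, 0.147, 0.205 and 0.289. With processed signals they had -0.73, -0.52, -0.49 and -0.38.

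In the wider leukocyte list 4 of 11 tested genes were higher and 2 lower, beside 39.1% and 38.1% of all features, the median being 0.033. Fcgr1 and Cd52 entered through the AngII RNA, where they read higher. Without them 2 of 9 rose and 2 fell, beside 39.7% and 39.4% of features above background in all 8 readings. Cd14, the endotoxin co-receptor gene, rose by 0.47 with a wide spread (0.10 to 0.79; limma adjusted p = 1.38e-10), and the macrophage protease gene Ctss by 0.24 (0.071 to 0.35; adjusted p = 9.44e-07). Fcgr1, an Fc receptor gene with 1 media channel above background, had 0.37 (0.31 to 0.44). Coro1a fell by 0.28 (-0.54 to -0.061), the largest fall of the list. The third C1q chain gene, C1qc, fell by 0.19, close to C1qa and C1qb, and Adgre1, Aif1, Lcp1, Ly86 and Hcls1 did not pass.

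Both neural markers had negative ratios, and 1 of them, Nefl, was above background in all 8 readings. Nefl had -0.61, -0.49, -0.57 and -0.54 and fell by 0.55 (limma adjusted p = 6.92e-13). Elavl3 had -0.66, -0.68, -0.40 and -0.57, a mean of -0.58, with 3 of 4 AngII channels above background and a processed-signal log2 ratio of -2.06. The wider neural list did not share the direction, as 6 of 12 tested were higher and 4 lower, beside 39.1% and 38.1% of all features. Its median was 0.095. Of 10 with all 8 readings above background, 5 were higher and 3 lower, beside 39.7% and 39.4% of features read that way. Tubb3, a neuronal tubulin gene, fell by 0.78 (-1.14 to -0.44; limma adjusted p = 6.10e-16), and Rtn1, a reticulon gene, rose by 0.56 (0.46 to 0.68; adjusted p = 5.99e-13). The neurofilament partner gene Nefm rose by 0.24 (0.16 to 0.32) where Nefl fell.

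**Figure D3:**
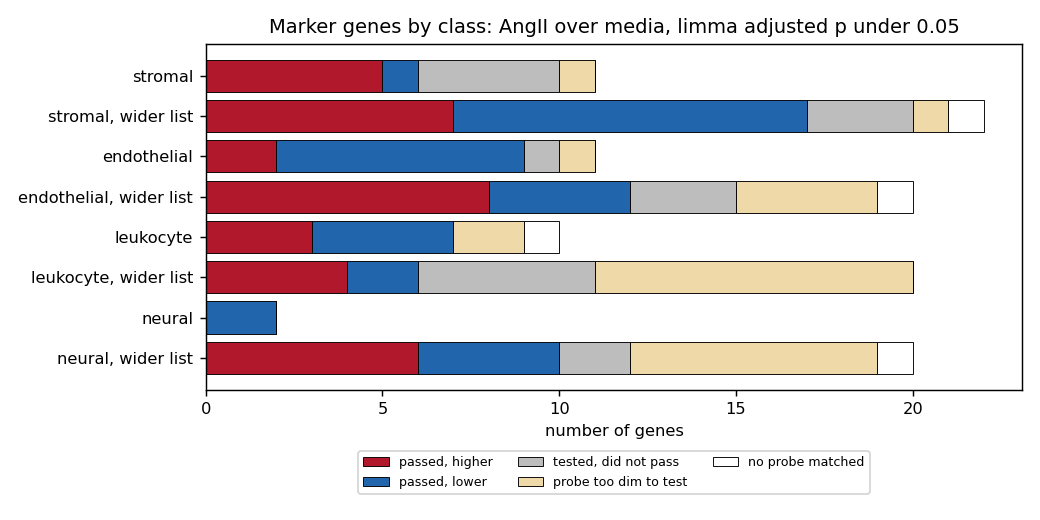
Number of genes in each marker class and in its wider list, by outcome of the limma test at an adjusted p under 0.05. Red is higher and blue lower under AngII, grey tested without passing, tan too dim to test and white no matched probe, with genes above background in 1 RNA alone counted as tested. The wider leukocyte list has 9 of 20 genes too dim to test, the stromal list of 11 has 1.

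The 2 dye orientations placed the markers as follows. With AngII in Cy5 alone the class medians were 0.31 for stromal, -0.085 for endothelial, 0.031 for leukocyte and -0.61 for neural markers. With AngII in Cy3 alone they were 0.14, -0.14, -0.095 and -0.52. For all features the medians were 0.036 and -0.027. In 10 of 29 markers, 6 of them stromal, 3 endothelial and 1 leukocyte, the mean of the Cy5 arrays and the mean of the Cy3 arrays had opposite signs. Over all features 59.1% had one sign on all 4 arrays, and 65.5% of the markers had, Ptprc, Cdh5, Tie1 and Elavl3 included.

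**Figure D4:**
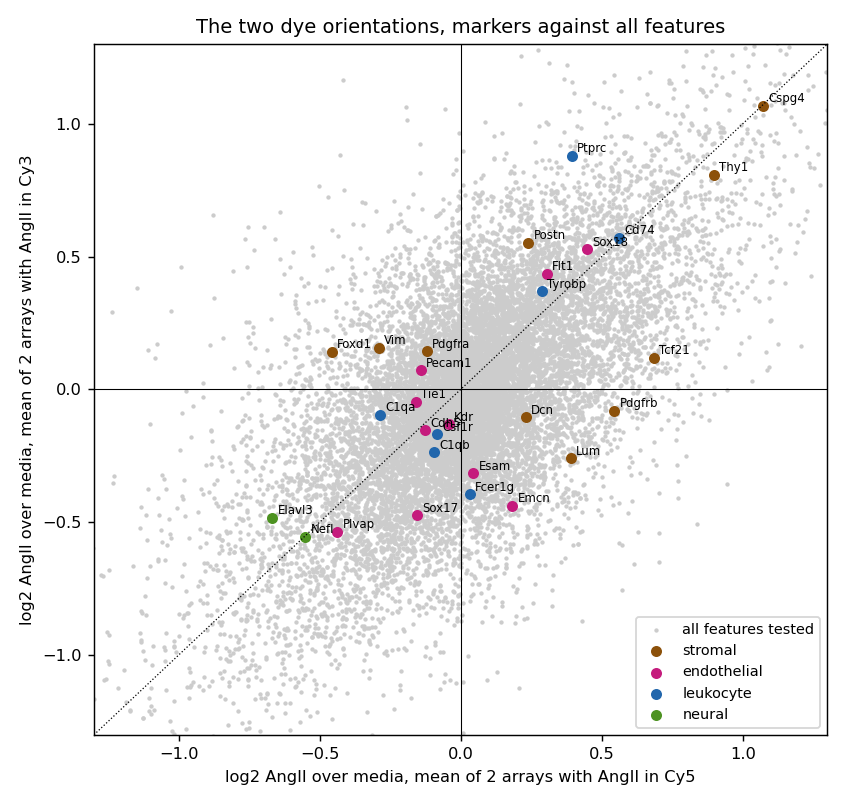
Log2 ratio of AngII over media as the mean of 2 arrays with AngII in Cy5 (horizontal) and of 2 with AngII in Cy3 (vertical). Grey points are all features tested, of which 228 fall outside the axes at 1.3, coloured points are the 29 markers by class, and the dotted line marks equal values. Cspg4, Thy1, Cd74, Plvap and Nefl lie near the line, while Foxd1, Pdgfrb, Lum and Emcn lie where the signs are opposite.

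The authors' deposited table gave like values for these genes, with r = 0.995 (across genes, which are not independent) against the ratios computed here over the 29 markers. The authors' deposited table had log2 ratios of 1.13 for Cspg4, 0.84 for Ptprc and -0.77 for Elavl3, and its adjusted p was 0.0685 for Emcn and, as the highest over 10 spots, 0.685 for Kdr.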

How the data were processed

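RNA of AngII-treated and media-treated ureteric buds was read on 4 Agilent 2-colour arrays. Per the file headers, Feature Extraction 10.5.1.1 read the scans with mm9 annotation, so no array coordinates are given. The submitters' processing notes also name limma. Deposited intensity columns used here were the uncorrected median spot and local background intensities. As an alternative, Agilent's processed intensity was used, which the software corrected for background and dye, per the file headers. A log10 ratio of red over green is deposited in the same scanner tables. For each spot the authors' deposited table lists a log2 ratio, an average log2 intensity, a p-value after adjustment, and a call given as a score of -1, 0 or 1. Its normalisation is not given in the sources used here.

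The ratios come from limma 3.58.1 in R 4.3.3: normexp with an offset of 50, which shrinks the ratios of dim probes, then loess within arrays. Control spots had weight 0 in it and spots marked as outliers were left out. No marker probe was saturated. Ratios were turned to AngII over media, the 2 arrays of a pair averaged, and the 2 ratios tested against 0 with lmFit and eBayes. A probe was tested if well above background in all 4 AngII or all 4 media channels (19393 of 41174 probes), and the brightest probe stood for a gene. Accessions matched to RefSeq GRCm38.p6 named 25097 probes. The averaging and fit alone were run on simulated ratios, most of them unchanged. That setting differs from these data, in which 77.2% of features passed.

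The labels number the pairs and each array holds both RNAs of 1 number, so the ratio is the pairing. The labels name no separate animals or cultures. By rule, values on each array were given for markers with a log2 ratio of at least 0.4 and the 3 others with the smallest p per class, with the 2 largest passing changes of each wider list, the 3 largest of each check list (epithelial, nephron progenitor, red cell), and other probes that differ by over 1.5 times or have the other sign with both past 0.2. Further probes, and Rgs5, Tagln, Mcam, Des, Cldn5, Vwf, C1qc, Ctss, Cd52, Nefm, Meox2, Six2 and Gdnf, were named after their values were seen. So were Icam2, Ets1, Coro1a, Cited1 and Wt1. Alternatives were the background correction, normalisation, probe filter and choice, each dye orientation, each replicate left out, a replicate block, and the authors' table. Members and lists were chosen with earlier results of these data known.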

Additional observations from a re-analysis of the deposited data

How the results depend on the processing

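Some marker ratios had the other sign under an alternative. With AngII in Cy3 alone these were Foxd1 (0.14), Pdgfrb (-0.080), Dcn (-0.11), Lum (-0.26), Vim (0.16) and Pecam1 (0.072), and with AngII in Cy5 alone Pdgfra (-0.12), Emcn (0.18), Esam (0.045) and Fcer1g (0.031). Pdgfra also had -0.077 with processed signals, -0.063 with the mean of its probes, and -0.0025 without replicate 2 against 0.025 without replicate 1, and Vim had 0.0074 with median centring. The dye follows from the construction of the first 2 settings, and for the others the cause was not tested.

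With the replicate block 3 markers passed as lower, in place of 14, and 8 as higher, in place of 10. These counts include markers above background throughout in 1 RNA alone. Over all features the block gave 2442 higher and 2196 lower, in place of 5857 and 5712. With the dye as its own coefficient on the 4 arrays, the ratios equal the main ones by construction, so their direction could not change. All 29 markers kept their side of the threshold. Class medians moved by more than their SD over the 4 arrays in these cases, whose cause was not tested: with AngII in Cy5 alone, stromal 0.31 and leukocyte 0.031; with processed signals, endothelial -0.31, leukocyte -0.38 and neural -1.37; with no filter on dim probes, leukocyte 0.0068; with no background correction, neural -0.68; and in the authors' deposited table, neural -0.67. Without replicate 1 and without replicate 2 the medians ran from 0.14 to 0.18 for stromal, -0.12 to -0.10 for endothelial, -0.16 to -0.06 for leukocyte and -0.57 to -0.56 for neural markers, with no test, since 1 ratio leaves no spread. The count of markers well above background ran from 25 to 32 over the flags and rules tried, against 29. Signal over background limits what can be said of Cdh5, Tie1, Ptprc and Elavl3, whose ratios moved by over 1.5 times with processed signals.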

Other observations

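Nephron progenitor markers, read as a check on mesenchyme beside the bud, had 3 higher and 7 lower of 12 tested. Over all features 39.1% were higher and 38.1% lower. The median log2 ratio of the list was -0.25. The homeobox genes Meox1 and Meox2 fell by 0.60 (-0.83 to -0.37) and 0.54 (-0.71 to -0.43), the transcription factor gene Osr1 by 0.58 (-0.79 to -0.34), and Tmem100 rose by 0.77 (0.60 to 0.95). Six2, the self-renewal factor gene of these cells, had -0.37, with a range of -0.83 to 0.043 that crossed 0. Cited1, another gene of these progenitors, rose by 0.24 (0.054 to 0.44), and Wt1 rose by 0.22 (0.16 to 0.26). Gdnf had 0.0037 and did not pass.

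Pecam1, Pdgfra and Kdr were printed at up to 10 spots of each array. Within an array their spots' log2 ratios had SDs of 0.064 to 0.11, 0.038 to 0.080 and 0.063 to 0.093, and for Pecam1 the means of the arrays ran from -0.14 to 0.11.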
